A study of Mus musculus with 4 samples.

Results

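A set of 10 genes that separate mouse blood monocytes into their classical and non-classical subsets were followed in RNA from dural CD45+ cells. The genes were taken by symbol: *Ly6c2*, *Plac8*, *Chil3*, *F10*, and *Vcan* for the classical subset, and *Treml4*, *Ace*, *Spn*, *Cd300e*, and *Eno3* for the non-classical subset. All 10 were present among the 55401 genes of the table, and all 10 had enough reads to be tested, among 19806 genes that had. The rule by which they were chosen uses names and no measured value, although earlier results of these data were known when it was written.

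The study asked how VEGF-C, a growth factor for lymphatic vessels, delivered into the cerebrospinal fluid acts on the meninges, and this experiment read the leukocytes of the dura mater, the outer meningeal layer. Wild-type male C57BL/6J mice received an AAV9 vector through the cisterna magna at 4 wk of age. In the AAV-mVEGF-C group the vector encoded mouse VEGF-C, and in the AAV-CTRL group it encoded a soluble VEGFR3 fragment fused to Ig that does not bind VEGF-C, so both groups carried a virus and a secreted product. After perfusion, the dura was digested with collagenase and CD45+ cells were sorted by FACS. Each group had 2 libraries, and each library was a pool of 10 to 12 mice, so that the spread between libraries is a spread between pools and single mice were not read.

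Classical monocytes carry high surface Ly6C, leave the bone marrow through CCR2, and enter tissues, where they can become macrophages or dendritic cells. Non-classical monocytes carry little Ly6C, arise largely from classical cells under the transcription factor NR4A1, and patrol the inner wall of blood vessels. The dura receives myeloid cells from the marrow of the overlying skull as well as from blood. In bulk RNA, fewer cells of a type and less RNA per cell cannot be told apart.

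The libraries held 32520649 to 46409685 reads in genes. AAV-CTRL 1 had the most reads and the fewest detected genes (20990, against 29221 to 37512 in the other libraries), and values with and without it are given below. *Ptprc*, which encodes CD45, stood at 946 to 1151 CPM in the 4 libraries, with a log2 difference of 0.02 between groups (SE 0.18). CPM denotes read counts scaled to a common library size with TMM factors and not to gene length, and differences between groups are log2 differences in CPM, AAV-mVEGF-C minus AAV-CTRL, with intervals at 95%.

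Levels of different genes were compared per transcript length, in TPM (transcript abundance scaled to length and depth), as means over the 4 libraries. *Chil3* was highest at 505 TPM, followed by *Ly6c2* at 184 TPM and *Plac8* at 129 TPM. *Spn* stood at 53.6 TPM, the highest of the non-classical genes. *F10* (12.2 TPM), *Ace* (6.23 TPM), *Treml4* (4.35 TPM), *Eno3* (4.05 TPM), and *Vcan* (4.02 TPM) came next, and *Cd300e* was lowest at 0.850 TPM. The libraries of *Chil3* (381 to 749 TPM) did not overlap those of *Ly6c2* (137 to 261 TPM), whereas *Ly6c2* overlapped *Plac8* (94.6 to 189 TPM). *Spn* (49.6 to 60.9 TPM) lay apart from both of its neighbours in this order. *F10*, *Ace*, *Treml4*, and *Eno3* each overlapped the next gene in the order, and *Cd300e* (0.621 to 1.08 TPM) lay below them in every library.

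Among the classical genes, *Ly6c2* encodes the GPI-anchored surface protein recognized by antibodies to Ly6C. It lies on the minus strand of chromosome 15 (chr15:75108158-75111970, GRCm38) beside the near-identical *Ly6c1*, which endothelial cells and some lymphocytes use. The coding sequences of both genes are 393 bases long and 97.7% identical, with 9 mismatches, and 15.8% of the 100-base windows of the *Ly6c2* transcript (114 of 723) occur exactly in the *Ly6c1* transcript. The first 90 coding bases are shown because no other coding stretch of that length holds more differences. The 6 bases that differ between the pair are in capitals (GENCODE M21 transcripts, 5′ to 3′, counted from the start codon).
Ly6c2: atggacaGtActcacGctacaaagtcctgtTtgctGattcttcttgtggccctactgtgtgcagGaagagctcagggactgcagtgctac
Ly6c1: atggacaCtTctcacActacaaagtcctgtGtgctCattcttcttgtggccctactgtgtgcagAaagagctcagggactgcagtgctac
*Ly6c2* had 169 and 94.1 CPM in the AAV-CTRL libraries and 131 and 137 CPM in the AAV-mVEGF-C libraries. Both AAV-mVEGF-C values fell between the 2 controls, so the groups overlapped. The means were 132 ± 53.2 and 134 ± 3.76 CPM (SD, n = 2 each), a log2 difference of 0.02 (SE 0.28, interval -0.66 to 0.71). *Ly6c1* took 0.914% and 1.90% of the reads of the pair in AAV-CTRL and 2.62% and 1.56% in AAV-mVEGF-C. Its level was 1.57 and 1.83 CPM in AAV-CTRL and 3.53 and 2.145 CPM in AAV-mVEGF-C, a log2 difference of 0.74 (SE 0.50). The deposited counts of *Ly6c2* were not whole, as estimated counts are where reads match more than 1 gene, and the split with *Ly6c1* carries that uncertainty.

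*Chil3* encodes Ym1, a secreted chitinase-like protein that neutrophil precursors also make. It lies at chr3:106147554-106167564 on the minus strand, and its coding sequence (1194 bases) is 94.4% identical to that of *Chil4* (1206 bases), with 55 mismatches and 12 gap columns. Coding bases 827 to 916 are shown as a stretch where the pair can be told apart, with the 12 differing bases in capitals.
Chil3: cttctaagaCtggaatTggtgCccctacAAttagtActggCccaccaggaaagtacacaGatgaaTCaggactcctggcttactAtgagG
Chil4: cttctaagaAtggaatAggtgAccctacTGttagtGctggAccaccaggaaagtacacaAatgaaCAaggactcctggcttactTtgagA
*Chil3* stood at 1385 and 649 CPM in AAV-CTRL and at 884 and 866 CPM in AAV-mVEGF-C. The controls again enclosed both treated pools. The means were 1017 ± 519.9 and 875 ± 12.8 CPM (SD, n = 2 each), a log2 difference of -0.22 (SE 0.35, interval -1.06 to 0.63). *Chil4* took at most 0.103% of the reads of this pair in any library. The counts of *Chil3* were not whole either, so its split with *Chil4* carries the same uncertainty, while those of the other 8 members were whole. *Chil3* made up 57.95% to 61.9% of the summed TPM of the 5 classical genes.

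*Plac8* (chr5:100553725-100572245, minus strand) encodes a small cysteine-rich protein of myeloid and some lymphoid cells. Its CPM was 141 and 69.2 in AAV-CTRL and 86.4 and 109 in AAV-mVEGF-C, with the treated pools inside the control range. The group means were 105 ± 50.95 and 97.9 ± 16.3 CPM (SD, n = 2 each), a log2 difference of -0.10 (SE 0.34, interval -0.93 to 0.72).

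*F10* (chr8:13037308-13056676, plus strand) encodes coagulation factor X. It had 45.2 and 12.7 CPM in AAV-CTRL and 22.5 and 18.2 CPM in AAV-mVEGF-C. The lowest and the highest library were both controls, 3.56-fold apart. Means of 28.9 ± 23.0 and 20.3 ± 2.98 CPM (SD, n = 2 each) gave a log2 difference of -0.51 (SE 0.54, interval -1.84 to 0.82), the farthest from 0 of the 10 genes.

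*Vcan* (chr13:89655312-89742509, minus strand) encodes versican, a large proteoglycan of the extracellular matrix that fibroblasts also produce. Its levels were 68.2 and 15.9 CPM in AAV-CTRL and 50.2 and 30.5 CPM in AAV-mVEGF-C. The controls stood 4.29-fold apart, the widest gap of the 10 genes, and enclosed the treated pools. The fitted log2 difference was -0.06 (SE 0.63, interval -1.60 to 1.48), from means of 42.1 ± 37.0 and 40.4 ± 13.9 CPM (SD, n = 2 each). Its sign was not stable, being 0.21 with limma-voom and 0.24 with a replicate block. The 8 fibroblast markers summed to 104.5 and 193.5 TPM in AAV-CTRL and to 57.9 and 89.6 TPM in AAV-mVEGF-C. AAV-CTRL 2 had the lowest *Vcan* value and the highest fibroblast sum, and the part of fibroblast RNA in the *Vcan* values was not tested. On the opposite strand, *Gm4117* and *Gm16318* overlap *Vcan*, *Gm4117* with 60 to 332 reads and *Gm16318* with 0 to 14 reads per library, against 547 to 3050 reads for *Vcan*.

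The non-classical genes were less uneven between the controls. *Treml4* (chr17:48264295-48275360, plus strand) encodes a TREM-like receptor that binds dying cells. It had 7.92 and 9.68 CPM in AAV-CTRL and 9.88 and 9.59 CPM in AAV-mVEGF-C. One treated pool lay just above both controls and the other between them. The means were 8.80 ± 1.25 and 9.74 ± 0.205 CPM (SD, n = 2 each), a log2 difference of 0.15 (SE 0.26, interval -0.48 to 0.78).

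*Ace* (chr11:105967945-105989964, plus strand) encodes angiotensin-converting enzyme, which endothelial cells also carry. Its CPM was 31.1 and 50.9 in AAV-CTRL and 37.9 and 46.4 in AAV-mVEGF-C. AAV-CTRL 1 was lowest and AAV-CTRL 2 highest, the reverse of the classical genes. The means were 41.0 ± 14.0 and 42.2 ± 6.03 CPM (SD, n = 2 each), a log2 difference of 0.04 (SE 0.27, interval -0.61 to 0.70). The 8 endothelial markers summed to 27.1 and 25.5 TPM in AAV-CTRL and to 16.2 and 18.6 TPM in AAV-mVEGF-C. Of these sums, *Pecam1* alone held 20.9 and 16.1 TPM in AAV-CTRL and 10.75 and 12.7 TPM in AAV-mVEGF-C. Which cells its RNA came from, and the part of endothelial RNA in the *Ace* values, were not tested.

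*Spn* (chr7:127132232-127137823, minus strand) encodes CD43, a mucin-like surface protein that non-classical monocytes share with T cells and progenitors. It stood at 327 and 238 CPM in AAV-CTRL and at 291 and 284 CPM in AAV-mVEGF-C. As with the classical genes, the controls enclosed the treated pools with AAV-CTRL 1 on top. The means were 282.5 ± 62.8 and 287 ± 4.96 CPM (SD, n = 2 each), a log2 difference of 0.02 (SE 0.20, interval -0.46 to 0.51). The 10 T cell markers summed to 169.1 and 183.1 TPM in AAV-CTRL and to 218.1 and 201 TPM in AAV-mVEGF-C. *Cd3g*, *Trac*, and *Cd5* had an unadjusted p under 0.05 among them, each higher in both AAV-mVEGF-C pools, with log2 differences of 0.39 (SE 0.15), 0.88 (SE 0.26), and 0.64 (SE 0.25). Their part in the *Spn* values was not tested. *Spn* made up 71.8% to 81.8% of the summed TPM of the 5 non-classical genes.

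*Cd300e* (chr11:115051917-115062177, minus strand) encodes an activating receptor of monocytes. It was the rarest member, with 72 to 101 reads per library. Its CPM was 2.26 and 2.76 in AAV-CTRL and 1.84 and 2.62 in AAV-mVEGF-C. The groups overlapped, with 1 treated pool below both controls. The log2 difference was -0.17 (SE 0.47, interval -1.31 to 0.97), from means of 2.51 ± 0.356 and 2.23 ± 0.548 CPM (SD, n = 2 each).

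*Eno3* (chr11:70657202-70662513, plus strand) encodes the β subunit of enolase, a glycolytic enzyme best known from skeletal muscle. The controls nearly coincided at 8.30 and 8.26 CPM, and the treated pools, at 5.50 and 8.90 CPM, lay on either side of them. The means were 8.28 ± 0.0286 and 7.20 ± 2.40 CPM (SD, n = 2 each), a log2 difference of -0.20 (SE 0.33, interval -1.01 to 0.60). The 8 skeletal muscle markers summed to 3.96 and 3.50 TPM in AAV-CTRL and to 5.02 and 10.25 TPM in AAV-mVEGF-C, with *Ckm*, *Myh4*, and *Tnnc2* at 0 in at least 1 library. The muscle sum was highest in AAV-mVEGF-C 2, where *Eno3* was highest in CPM but not in TPM (4.46 TPM, against 4.69 TPM in AAV-CTRL 2), and the part of muscle RNA in the *Eno3* values was not tested.

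**Figure D1:**
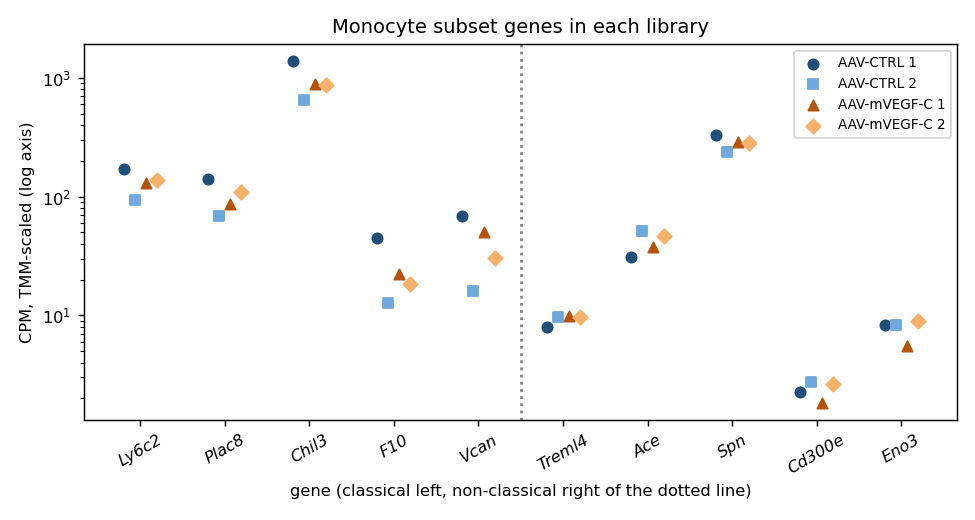
CPM of each of the 10 genes (log axis) in the 4 libraries, with AAV-CTRL and AAV-mVEGF-C side by side. For the 5 classical genes the controls lie apart, as in *Vcan* at 68.2 and 15.9 CPM, with both treated pools between them.

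None of the 10 genes passed the test between groups. With the quasi-likelihood test of edgeR and Benjamini-Hochberg adjustment over 19806 genes, the adjusted p was 0.999 for each of them, beside 0 genes (0%) with an adjusted p under 0.05 in the whole table. At an unadjusted p under 0.05 there were 523 genes (2.64%) by edgeR, and 0 of the 10. With DESeq2, 72 genes of the table (0.364%) passed the adjusted threshold, with limma-voom 0 (0%), and in both fits 0 of the 10 did. The 2 groups overlapped for every one of the 10, whereas of all tested genes 16.8% had both AAV-mVEGF-C pools above both controls and 15.2% had both below. An exact permutation test on a single gene cannot go below a p of 0.333 with 2 pools against 2.

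The intervals state what these pools could have shown. For *Spn* the interval reached from -0.46 to 0.51, and for *Ly6c2* from -0.66 to 0.71, on the log2 scale. For *F10*, *Vcan*, and *Cd300e* the intervals were wider than 2 log2 units, so differences of 2-fold in either direction lay within the interval of *Vcan*. In 9 of the 10 genes the controls differed from each other by more than the fitted difference between groups, and in *Eno3* the treated pools did.

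**Figure D2:**
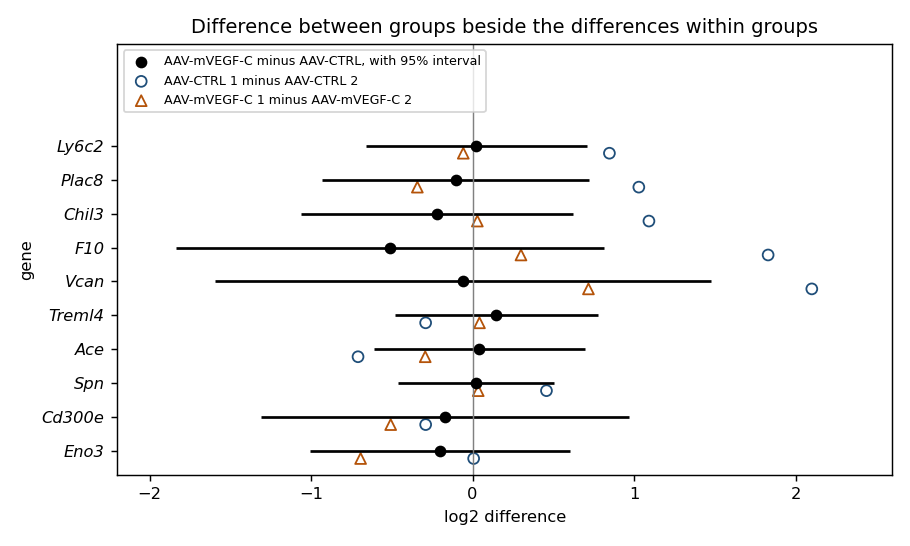
Log2 difference between groups with its 95% interval (filled circles and bars), beside the log2 difference between the 2 AAV-CTRL libraries (open circles) and between the 2 AAV-mVEGF-C libraries (triangles), for each gene. Every interval includes 0, and the control libraries differ by 0.85 to 2.10 for the 5 classical genes.

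What the classical genes shared was the order of the libraries. All 5 were highest in AAV-CTRL 1 and lowest in AAV-CTRL 2, an order held by 11.4% of all tested genes, and *Spn* held it too. The gap between the controls was 1.80-fold for *Ly6c2*, 2.04-fold for *Plac8*, and 2.13-fold for *Chil3*, and it was wider for the less abundant *F10* and *Vcan*. *Ace* alone of the 10 had the opposite order, found in 14.3% of all genes. The other 3 non-classical genes had neither.

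Summed over the 5 classical genes, the level was 1230 and 620 TPM in AAV-CTRL and 723 and 767 TPM in AAV-mVEGF-C. The 5 non-classical genes summed to 74.4 and 69.1 TPM in AAV-CTRL and to 65.4 and 67.2 TPM in AAV-mVEGF-C. The highest and the lowest classical sum were both controls, while the non-classical sums lay close together in all 4 libraries. *Spn* made up 71.8% to 81.8% of the non-classical sums and was higher in AAV-CTRL 1 (60.9 TPM) than in AAV-CTRL 2 (49.6 TPM). *Ace* (4.98 and 8.19 TPM), *Treml4* (3.41 and 5.51 TPM), *Eno3* (4.34 and 4.69 TPM), and *Cd300e* (0.813 and 1.08 TPM) were each lower in AAV-CTRL 1. The ratio of the classical to the non-classical sum was 16.5 and 8.97 in AAV-CTRL and 11.1 and 11.4 in AAV-mVEGF-C. Both treated pools lay between the controls, and the means were 12.75 ± 5.34 and 11.2 ± 0.247 (SD, n = 2 each). Without *Chil3* and *Spn*, which dominate the sums, the ratio was 35.5 and 12.3 in AAV-CTRL and 21.4 and 20.2 in AAV-mVEGF-C, again with both treated pools between the controls.

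**Figure D3:**
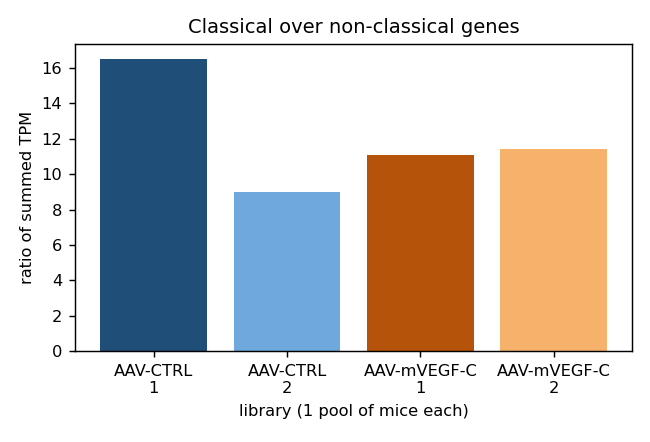
Ratio of the summed TPM of the 5 classical genes to that of the 5 non-classical genes in each library. The 2 AAV-CTRL libraries, at 16.5 and 8.97, lie on either side of the AAV-mVEGF-C libraries, at 11.1 and 11.4.

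Many neutrophil and progenitor markers had the same order of libraries. Of 12 neutrophil markers, 10 were highest in AAV-CTRL 1 and lowest in AAV-CTRL 2, and their summed level was 34368 and 16434 TPM in AAV-CTRL and 19042 and 21970 TPM in AAV-mVEGF-C. Of 8 markers of granulocyte-monocyte progenitors, 6 held that order, with sums of 1481 and 377 TPM in AAV-CTRL and 742 and 569.5 TPM in AAV-mVEGF-C. *Mpo*, the granule peroxidase, had 2116 and 431 CPM in AAV-CTRL and 1090 and 809 CPM in AAV-mVEGF-C. The part of neutrophil and progenitor RNA in the classical values was not tested.

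The opposite order, lowest in AAV-CTRL 1 and highest in AAV-CTRL 2, was held by 4 of 8 B cell markers (122.4 and 283.9 TPM in AAV-CTRL, 100.7 and 117.9 TPM in AAV-mVEGF-C) and by 7 of 8 markers of plasmacytoid dendritic cells (68.6 and 168.4 TPM in AAV-CTRL, 80.5 and 93.3 TPM in AAV-mVEGF-C). The 10 markers of border-associated macrophages summed to 219 and 355.3 TPM in AAV-CTRL and to 154.3 and 238.9 TPM in AAV-mVEGF-C, with 3 of 10 in that order. The 8 plasma cell markers summed to 246.6 and 294.5 TPM in AAV-CTRL and to 518.1 and 525.6 TPM in AAV-mVEGF-C.

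**Figure D4:**
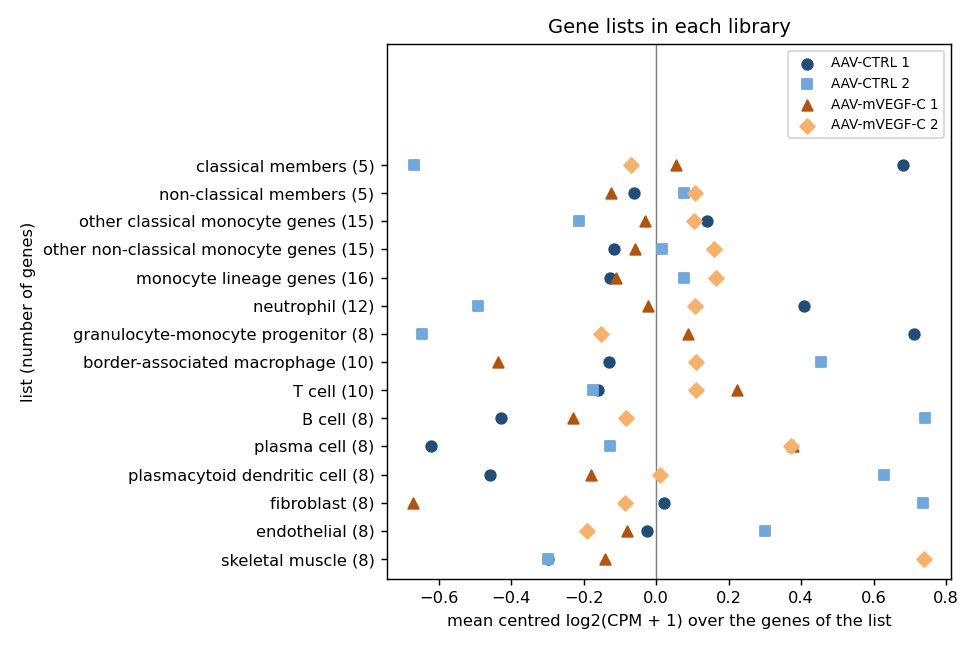
Mean over the genes of a list of log2(CPM + 1), centred for each gene on its mean over the 4 libraries, for the 5 classical genes, the 5 non-classical genes, 3 other monocyte lists, and 10 lists of other cell types. AAV-CTRL 1 and 2 lie at 0.68 and -0.67 for the classical genes, at 0.41 and -0.49 for neutrophil markers, at 0.71 and -0.65 for progenitor markers, and at -0.06 and 0.08 for the non-classical genes.

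Further genes of the same subsets were read as counts over hand-written lists. Of 15 other classical genes, 8 were higher and 7 lower in AAV-mVEGF-C (median log2 difference 0.02, against 0.00 over all tested genes), and none had an unadjusted p under 0.05. *Ly6c1*, which endothelial cells and some lymphocytes use, was counted in this list among the 8 higher, with its largest log2 difference (0.74, SE 0.50). *Fn1*, *Hp*, *Mgst1*, *Ifitm6*, and *S100a4* were among those with the library order of the classical members. Those with the most reads, by mean CPM, were *Lyz2* (lysozyme), *Thbs1* (thrombospondin), and *Fn1* (fibronectin), with log2 differences of 0.03 (SE 0.18), 0.41 (SE 0.19), and 0.05 (SE 0.20). The chemokine receptor *Ccr2*, by which classical monocytes leave the marrow, stood at 322 to 360 CPM and did not share that order. Over the 5 classical members the counts were 1 higher and 4 lower, with a median of -0.10.

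Of 15 other non-classical genes, 11 were higher and 4 lower in AAV-mVEGF-C, with a median log2 difference of 0.16, and 0 passed the adjusted test. *Cebpb*, which encodes C/EBPβ, a transcription factor that non-classical monocytes need, was the 1 gene with an unadjusted p under 0.05. It had 224 and 233 CPM in AAV-CTRL and 358 and 451 CPM in AAV-mVEGF-C. Both treated pools lay above both controls, at a log2 difference of 0.82 (SE 0.18), and the adjusted p of the edgeR quasi-likelihood test was 0.999. *Nr4a1*, the factor on which the subset depends, and the integrin gene *Itgal* had log2 differences of 0.25 (SE 0.21) and 0.27 (SE 0.16). The mean level of *Nr4a1* was 419 TPM and that of *Itgal* 49.6 TPM, against 4.35 TPM for *Treml4* and 6.23 TPM for *Ace*. The part of RNA from other cells in the values of this list was not tested. Over the 5 non-classical members there were 3 higher and 2 lower, with a median of 0.02. Of 16 genes of the monocyte lineage as a whole, 11 were higher and 5 lower (median 0.04), and *Itgam*, *Csf1r*, and *Zeb2* had log2 differences of 0.04 (SE 0.22), -0.22 (SE 0.23), and 0.04 (SE 0.21).

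Among the genes of these lists, those whose centred log2 CPM lay closest to the mean of the classical members were *Ifitm6*, *Lcn2*, and *Hp*, at root mean square distances of 0.0562, 0.128, and 0.128 over 4 libraries. *Ifitm6* had 174 and 66.7 CPM in AAV-CTRL and 102 and 101.5 CPM in AAV-mVEGF-C. *Lcn2* belongs to the neutrophil list. Closest to the non-classical members were *Ms4a4c*, *Fcgr4*, and *Ccr2*, at 0.0326, 0.0814, and 0.109. *Ms4a4c* and *Ccr2* come from the classical list, so nearness to this flat profile did not follow the subset.

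Sequence upstream of the members was read for binding motifs of factors known from monocytes. The 250 bases before each start in the RefSeq table (GRCm38.p6) were searched on both strands for GGAAGT, a core of the PU.1 site, for TTNNGNAA, a C/EBP site, and for AAAGGTCA, the site of NR4A1, and overlaps between motifs were allowed. The PU.1 letters occurred in 6 of the 10 members (*Ly6c2*, *Chil3*, *F10*, *Treml4*, *Spn*, and *Cd300e*), beside 19.7% of 32851 promoter entries. The C/EBP letters occurred in 5 (*Ly6c2*, *Plac8*, *Chil3*, *Treml4*, and *Eno3*), beside 36.8% of the entries. The members have 13 entries in all, so a member with more than 1 entry had more chances of a match. AAAGGTCA was in none of the 13 windows, beside 1.34% of the entries, which says only that these letters are not in these windows. *Ly6c2*, *Chil3*, and *Treml4* are shown because both PU.1 and C/EBP letters lie in their windows, in classical as in non-classical members. Matches to either are in capitals, 5′ to 3′ on the strand of the gene, at chr15:75111972-75112221 (minus strand), chr3:106167565-106167814 (minus strand), and chr17:48264045-48264294 (plus strand).
Ly6c2: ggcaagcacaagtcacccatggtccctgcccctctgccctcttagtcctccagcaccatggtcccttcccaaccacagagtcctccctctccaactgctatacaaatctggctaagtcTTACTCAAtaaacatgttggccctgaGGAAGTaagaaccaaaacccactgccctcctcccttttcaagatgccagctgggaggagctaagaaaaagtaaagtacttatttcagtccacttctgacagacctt
Chil3: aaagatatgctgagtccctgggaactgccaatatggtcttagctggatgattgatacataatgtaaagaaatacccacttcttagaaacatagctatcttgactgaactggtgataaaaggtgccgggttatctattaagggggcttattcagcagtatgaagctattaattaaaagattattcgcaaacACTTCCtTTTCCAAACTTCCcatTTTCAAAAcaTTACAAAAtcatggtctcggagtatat
Treml4: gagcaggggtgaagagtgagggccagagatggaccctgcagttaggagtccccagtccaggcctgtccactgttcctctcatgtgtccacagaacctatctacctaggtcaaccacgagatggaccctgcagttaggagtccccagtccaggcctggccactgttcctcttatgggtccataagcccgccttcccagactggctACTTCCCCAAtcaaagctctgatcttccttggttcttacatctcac

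The values depended on which control pool was kept. Without AAV-CTRL 1, the median log2 difference of the 5 classical genes was 0.51, and without AAV-CTRL 2 it was -0.67. *Vcan* then had a log2 difference of 1.35 without AAV-CTRL 1 (adjusted p = 0.025, edgeR's quasi-likelihood test), and *F10* one of -1.15 without AAV-CTRL 2 (adjusted p = 0.0106, the same test). These were the only 2 of 40 such values past the threshold, each with a lone control assumed to vary like the treated pools, and they point in opposite directions. Over all tested genes, 1.07% passed without AAV-CTRL 1, 9.08% without AAV-CTRL 2, 0.0101% without AAV-mVEGF-C 1, and 0% without AAV-mVEGF-C 2, beside 1 of the 10 members (*Vcan*) in the first of these fits, 1 (*F10*) in the second, and 0 in the others. Under the 10 alternatives that kept all 4 libraries, none of 100 values of the members passed, and the lowest adjusted p was 0.868.

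**Figure D5:**
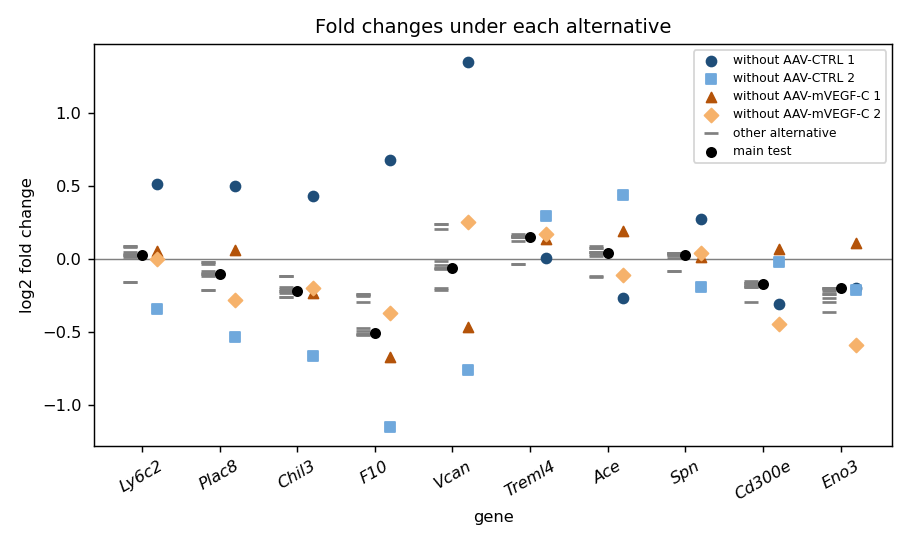
Log2 difference of each of the 10 genes under edgeR with all 4 libraries, under the 10 alternatives that keep all libraries, and with each library left out in turn. Leaving out AAV-CTRL 1 or AAV-CTRL 2 moves the classical genes to opposite sides of 0, as for *Vcan* at 1.35 and -0.76.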

How the data were processed

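RNA from FACS-sorted dural CD45+ cells was read in 2 AAV-CTRL and 2 AAV-mVEGF-C libraries made with the SMARTer stranded total RNA pico kit. The authors deposited estimated counts per gene, of which 8.18% were not whole and which were rounded here, and TPM, which is scaled to length and depth. The submitters' processing notes name FastQC, Trimmomatic, DRAGEN, Picard, and the build mm10; the annotation and the strand setting of the counting are not given in the sources used here. Coordinates and transcripts came from GENCODE M21 on GRCm38, where 54349 of 55401 identifiers occurred with the same version.

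Differences were tested with edgeR 4.0.16 (glmQLFit and glmQLFTest, TMM, filterByExpr) in R 4.3.3 over 19806 genes, without covariates. A gene passed at a p under 0.05 after Benjamini-Hochberg adjustment. The SE is the log2 difference divided by the square root of F. The common dispersion was 0.173. The fit was run on simulated counts with 200 changed genes, the common dispersion for every gene, and larger changes than those of the members. That run was required only to recover the sign and size of the changes. It says nothing on differences as small as those of the members. The alternatives were DESeq2 1.42.0, limma-voom (limma 3.58.1), a replicate block, RLE or no scaling, other filters, TPM with pseudocounts of 1 and 0.1, and each library left out. The p-values measure the spread between pools.

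The members and gene lists were chosen with earlier results of these data known. The text names all 10 members and, of each other list, the genes with an unadjusted p under 0.05 or, where fewer than 3, the 3 with the largest mean CPM; the closest profiles are 3 per subset. *Ly6c1* and *Chil4* were named as close paralogs of members. *Ccr2*, the genes sharing the library order, the muscle markers at 0, and the overlapping genes were named for the result beside them, after their values were seen. Levels of members rest on 72 reads or more per library.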

Additional observations from a re-analysis of the deposited data

How the results depend on the processing

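The limit is 2 pools per group, with 2 residual degrees of freedom. Genes with an adjusted p under 0.05 numbered 72 with DESeq2, 11 with the replicate block, 54 with the block crossed (added after seeing the data because same-numbered libraries deviated with a correlation of -0.134), 268 without a filter, and 0 to 1798 with a library left out, the most being without AAV-CTRL 2 (212 without AAV-CTRL 1, 2 without AAV-mVEGF-C 1). At an unadjusted p, 1327 passed without a filter, 902 and 884 with TPM at pseudocounts of 1 and 0.1, and 141 to 6088 with a library left out. The column labels number the libraries differently from the experiments, so the pairing is not settled, and the replicate block changed the call of no member. TPM moved the median of all genes to -0.08 (pseudocount 1) and -0.11 (0.1). On those 2 scales the values of the other sign were -0.16 and -0.16 for *Ly6c2*, -0.035 and -0.036 for *Treml4*, -0.12 and -0.13 for *Ace*, and -0.083 and -0.085 for *Spn*, and the median of the non-classical genes was -0.12 and -0.13. *Vcan* was 0.21 with limma-voom, 0.24 with the replicate block, and 0.24 with it crossed. The cause was not tested. With each library left out, the log2 differences were -0.34 to 0.51 for *Ly6c2*, -0.53 to 0.50 for *Plac8*, -0.67 to 0.43 for *Chil3*, -1.15 to 0.68 for *F10*, -0.76 to 1.35 for *Vcan*, 0.0082 (without AAV-CTRL 1) to 0.29 (without AAV-CTRL 2) for *Treml4*, -0.27 to 0.43 for *Ace*, -0.19 to 0.27 for *Spn*, -0.44 to 0.070 for *Cd300e*, and -0.59 to 0.11 for *Eno3*. The medians ranged from -0.67 to 0.51 (classical), -0.20 to 0.11 (non-classical), -0.13 to 0.16 (monocyte lineage), -0.11 (without AAV-mVEGF-C 2) to 0.26 (without AAV-CTRL 1) for the other classical genes, and 0.06 (without AAV-mVEGF-C 2) to 0.22 (without AAV-CTRL 2) for the other non-classical genes, whose median was also 0.09 without AAV-CTRL 1, and 0.06 and 0.07 with TPM at pseudocounts of 1 and 0.1. For the other classical genes it was -0.13 on both TPM scales. The log2 difference in the ratio of sums was -0.12, and -0.56 to 0.32 with a library left out. It was -0.01 without *Chil3* and *Spn*, also added after seeing the data. In the fits that leave out a library, *F10* without AAV-CTRL 2 and *Vcan* without AAV-CTRL 1 passed the threshold, at -1.15 and 1.35.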

Other observations

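Lists of other cell types were read in the same fit, and none of their genes had an adjusted p under 0.05 (edgeR's quasi-likelihood test). Over all 19806 tested genes, 9983 were higher and 9823 lower in AAV-mVEGF-C, and 523 had an unadjusted p under 0.05. Of 8 plasma cell markers, 7 were higher (median log2 difference 0.73), and 3 had an unadjusted p under 0.05: *Jchain*, which encodes the joining chain of IgA and IgM, at 1.35 (SE 0.16), *Sdc1* at 0.53 (SE 0.19), and *Prdm1* at 0.64 (SE 0.20). Of 10 T cell markers, 9 were higher (median 0.26). Of 8 B cell markers, 7 were lower (median -0.51), with *Ms4a1*, which encodes CD20, at -0.82 (SE 0.33), *Cd79a* at -0.76 (SE 0.42), and *Pax5* at -0.34 (SE 0.41).

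Among myeloid lists, 7 of 12 neutrophil markers were higher (median 0.02), with *Ngp* at -0.50 (SE 0.39), *S100a9* at 0.01 (SE 0.36), *Ltf* at -0.25 (SE 0.33), and *Csf3r*, the G-CSF receptor gene, at 0.50 (SE 0.19). Of 8 progenitor markers, 7 were lower (median -0.31), with *Mpo* at -0.42 (SE 0.66), *Elane* at -0.33 (SE 0.58), and *Kit* at -0.08 (SE 0.18). All 10 markers of border-associated macrophages were lower (median -0.36), with *Mrc1* at -0.29 (SE 0.26), *Maf* at -0.06 (SE 0.23), and *Cd163* at -0.26 (SE 0.25). Of 8 markers of plasmacytoid dendritic cells, 6 were lower (median -0.28), with *Tcf4* at -0.09 (SE 0.28), *Runx2* at 0.08 (SE 0.30), and *Spib* at -0.56 (SE 0.56).

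The last lists were written for cells outside the CD45+ gate, and which cells the RNA of each marker came from was not tested. All 8 fibroblast markers were lower in AAV-mVEGF-C (median -0.86), 4 of them with an unadjusted p under 0.05: *Col1a1* at -0.97 (SE 0.29), *Col1a2* at -0.92 (SE 0.32), *Dcn* at -0.92 (SE 0.31), and *Pdgfra* at -0.996 (SE 0.28). Of 8 endothelial markers, 7 were lower (median -0.38), with *Kdr* at -0.80 (SE 0.30), *Pecam1* at -0.24 (SE 0.16), *Flt1* at 0.09 (SE 0.30), and *Cdh5* at -0.52 (SE 0.30). Of 8 skeletal muscle markers, 7 were higher (median 2.14) at very low levels, with *Tnnt3* at 1.96 (SE 0.52), *Acta1* at 2.72 (SE 1.57), and *Actn3* at 0.33 (SE 0.96).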
